A study of Homo sapiens with 6 samples.

Results

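The HSP90 paralogs and their co-chaperones described here are 10 genes, picked by symbol from the 58825 genes of the deposited table: the cytosolic chaperones HSP90AA1 and HSP90AB1, the mitochondrial paralog TRAP1, and the co-chaperones AHSA1, CHORDC1, PTGES3, CDC37, STIP1, FKBP4 and FKBP5. All 10 passed the filter on low counts, as did 18229 genes in all. They were measured in MDA-MB-231, an established triple-negative breast cancer cell line, by poly(A) RNA sequencing. One group of 3 libraries came from cells given DMSO, the solvent. The other group of 3 came from cells given DSF/Cu (disulfiram, a drug whose dithiocarbamate product binds copper, together with copper) at 0.2 µM, and both groups were collected after 24 h. Each library pooled the cells of 3 wells, and all come from this 1 cell line, so the spread between libraries is the spread between pooled cultures and may be partly technical. No library with disulfiram or copper alone was analysed here, so the parts played by the drug and the metal cannot be told apart.

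HSP90 is an ATP-driven chaperone that works as a dimer on proteins that are already partly folded, among them many kinases and the steroid hormone receptors. Co-chaperones set the pace and the cargo of its cycle: STIP1 (HOP) links it to HSP70, CDC37 brings kinases, AHSA1 speeds ATP hydrolysis, PTGES3 (p23) slows it and holds the closed state, and the immunophilins FKBP4 and FKBP5 compete for receptor-bound HSP90. HSP90AA1 is known as the stress-inducible cytosolic form and HSP90AB1 as the constitutive one, and heat shock factors bind inverted repeats of a short GAA unit, the heat shock element, in many chaperone promoters.

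After DSF/Cu, 6 of the 10 genes rose (CHORDC1, HSP90AA1, AHSA1, HSP90AB1, STIP1 and CDC37), 2 fell (FKBP5 and TRAP1) and 2 did not pass the test (PTGES3 and FKBP4). A gene counts as raised or lowered when its Benjamini-Hochberg adjusted p in edgeR's quasi-likelihood test, taken over all 18229 genes, was under 0.05. Of all genes tested, 18.5% were raised and 16.8% lowered by that rule. The median log2 change was 0.66 over the 10 genes and 0.002 over all genes tested. CHORDC1 showed the largest of the 10 changes, from a mean of 52.9 to 237 CPM (counts scaled to library size).

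The start regions of 4 of the genes are printed because they show where heat shock element letters do and do not occur among the genes that rose most. Each sequence holds the 210 bases before a transcript start, 5′ to 3′ on the gene's strand, from RefSeq's promoter table for GRCh38.p14. Capitals mark the letters GAANNTTC or TTCNNGAA (2 units) and the longer GAANNTTCNNGAA or TTCNNGAANNTTC (3 units). The first pair each read the same on both strands, the second pair are each other's reverse complement, and every 3-unit match contains 2-unit matches. HSP90AA1 is shown at chr14:102087045-102087254 (minus strand), HSP90AB1 at chr6:44247733-44247942 (plus strand), CHORDC1 at chr11:90223050-90223259 (minus strand) and AHSA1 at chr14:77457657-77457866 (plus strand).
HSP90AA1: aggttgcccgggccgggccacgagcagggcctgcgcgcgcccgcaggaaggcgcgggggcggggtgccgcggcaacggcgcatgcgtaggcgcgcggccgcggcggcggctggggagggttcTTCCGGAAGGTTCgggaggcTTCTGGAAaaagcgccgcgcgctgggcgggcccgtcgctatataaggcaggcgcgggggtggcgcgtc
HSP90AB1: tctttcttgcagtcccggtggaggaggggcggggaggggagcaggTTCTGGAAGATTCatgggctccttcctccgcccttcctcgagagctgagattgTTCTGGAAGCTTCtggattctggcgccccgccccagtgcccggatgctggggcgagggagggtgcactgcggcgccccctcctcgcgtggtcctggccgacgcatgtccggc
CHORDC1: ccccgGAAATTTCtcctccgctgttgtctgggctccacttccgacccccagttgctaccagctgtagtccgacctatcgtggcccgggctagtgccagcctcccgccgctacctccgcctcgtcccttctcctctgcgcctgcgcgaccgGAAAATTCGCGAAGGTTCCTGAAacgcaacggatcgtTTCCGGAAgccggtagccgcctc
AHSA1: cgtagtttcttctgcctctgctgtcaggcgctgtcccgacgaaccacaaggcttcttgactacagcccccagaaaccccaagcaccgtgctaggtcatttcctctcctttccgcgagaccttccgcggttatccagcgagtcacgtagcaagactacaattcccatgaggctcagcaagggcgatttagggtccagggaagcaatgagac

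Of the 10 genes, 9 had an entry in the promoter table, with 15 windows in all, each running from 250 bases before to 50 bases after a start. FKBP4 had none. The 3-unit letters occurred in a window of 3 of the 9 genes, HSP90AA1, HSP90AB1 and CHORDC1, and in 0.490% of all 35116 windows in the table (0.608% of 27305 genes). With the first transcribed base at 0, the match of HSP90AA1 began at -88, those of HSP90AB1 at -165 and -112, and those of CHORDC1 at -60, -55 and -50, where they overlap into 1 run. STIP1 had only a 2-unit match, beginning at 13, inside the transcript. The 2-unit letters are common, being found in 13.5% of all windows. No match lay in the windows of AHSA1, PTGES3, CDC37, TRAP1 or FKBP5, which says only that these letters are not in those windows. A match of letters is a description of sequence, and no binding was measured here. HSP90AB1 has 3 windows and HSP90AA1 and STIP1 have 2 each, and in each of these genes only 1 window held a match. The windows of HSP90AA1 and HSP90AB1 nearest the 5′ end of the gene's span held none, and the printed ones are those with matches. No GENCODE 29 transcript starts exactly at the start base of the printed HSP90AB1 window, the nearest start being 77 bases away. The matches of HSP90AB1 lay within the gene's span, where GENCODE 29 annotates an intron. Those of HSP90AA1 and CHORDC1 overlapped exons that GENCODE 29 assigns to the same genes, which for CHORDC1 reach beyond the 5′ end of the span in the deposited table.

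**Figure D1:**
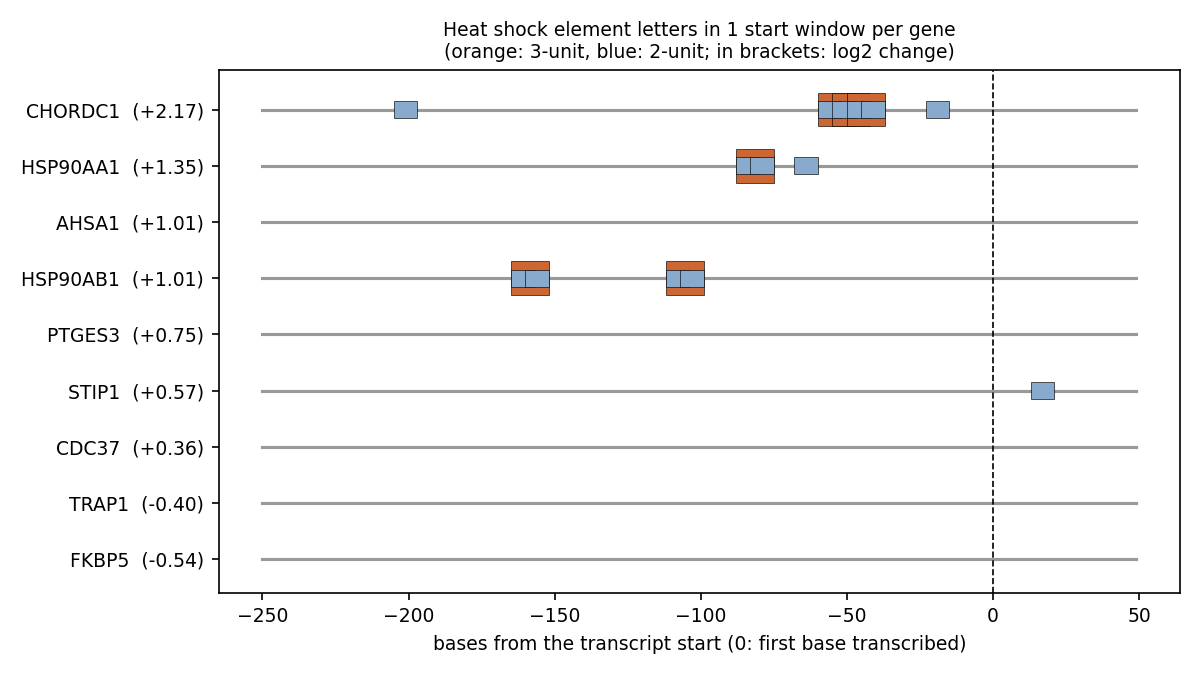
Position of heat shock element letters in 1 start window per gene, in bases from the transcript start (x axis, 0 is the first transcribed base), with the genes ordered by their log2 change, given in brackets. Orange boxes are 3-unit and blue boxes 2-unit matches. For a gene with several windows, the one with the most matches is drawn. The 3-unit letters are in the drawn windows of CHORDC1, HSP90AA1 and HSP90AB1, and AHSA1, with a change of 1.01, has none.

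The DMSO libraries held 62165212 to 70883177 counts each, and the DSF/Cu libraries 55563223 to 61633168. Levels below are CPM after scaling by the trimmed mean of M-values (TMM), unless FPKM, a level per kilobase of transcript, is named. With libraries scaled by their total counts instead, the median change over all genes was -0.18 on the log2 scale, so small positive changes shrink, and 12.9% of genes were raised and 26.6% lowered. FPKM is not scaled by TMM and carries a like shift. The markers of a mesenchymal-like line were all detected, with a summed level of 9477 to 9795 CPM in DMSO and 10092 to 11200 CPM in DSF/Cu, although SPARC was low. The 8 luminal markers summed to 136 to 142 CPM in DMSO and 83.8 to 87.1 CPM in DSF/Cu, nearly all of it KRT19. The 4 immune markers summed to at most 0.448 CPM in DMSO and 2.46 CPM in DSF/Cu, with CD3E at 0 in all 6 libraries. The 7 fibroblast, endothelial and adipocyte markers reached at most 3.50 and 7.47 CPM, with DCN, LUM, CDH5 and ADIPOQ at 0.

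Both cytosolic HSP90 genes rose, with the larger fitted change in HSP90AA1. HSP90AA1 (ENSG00000080824, chr14:102080738-102139699, minus strand, GRCh38 as for all gene coordinates) stood at 2355, 2693 and 2680.0 CPM in DMSO and at 6898, 6518 and 6345 CPM in DSF/Cu. The lowest treated library thus lay well above the highest control. Its mean went from 2576 ± 191 to 6587 ± 283 CPM (SD, n = 3 each), 2.56-fold, a log2 change of 1.35 ± 0.06 (SE; 95% interval 1.20 to 1.51; edgeR adjusted p = 5.11e-05). HSP90AB1 (ENSG00000096384, chr6:44246166-44253888, plus strand) stood at 3256, 3497 and 3338 CPM in DMSO and at 7122, 6710.1 and 6437 CPM in DSF/Cu, again without overlap. Its mean doubled, from 3364 ± 123 to 6756 ± 345 CPM (SD, n = 3 each), 2.01-fold or 1.01 ± 0.05 on the log2 scale (95% interval 0.89 to 1.13; edgeR adjusted p = 6.13e-05).

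Per length, HSP90AB1 was the more abundant of the pair in every library. Its FPKM went from 1018 ± 30.4 to 1815 ± 59.5 (SD, n = 3 each), which placed it 20th and 19th among all tested genes in DMSO and DSF/Cu. HSP90AA1 went from 442 ± 30.2 to 1005 ± 24.6 FPKM and from place 57 to place 31. Together the pair took 0.603%, 0.656% and 0.640% of all counts in DMSO, then 1.28%, 1.25% and 1.22% in DSF/Cu. In bulk RNA, more transcript per cell cannot be told apart from a changed make-up of the cells harvested.

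TRAP1, the HSP90 paralog of the mitochondrial matrix, went the other way. TRAP1 (ENSG00000126602, chr16:3651639-3717553, minus strand) read 179, 159 and 178 CPM in DMSO and 137, 134 and 121 CPM in DSF/Cu. All 3 treated libraries lay below all 3 controls. The mean fell from 172 ± 11.4 to 131 ± 8.19 CPM (SD, n = 3 each), 1.32-fold lower, a log2 change of -0.40 ± 0.07 (95% interval -0.57 to -0.22; edgeR adjusted p = 0.00746). DNASE1 overlaps TRAP1 on the opposite strand and held counts equal to 7.06% of those of TRAP1 in DMSO and 9.24% in DSF/Cu. The strand setting of the counting is not given in the sources used here, so reads of this pair cannot be told apart where the genes overlap. WDR20, opposite HSP90AA1, held counts equal to at most 0.716% of those of HSP90AA1 in either group.

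HSP90B1 (GRP94), the paralog of the endoplasmic reticulum, is not among the 10 genes but completes the family. It read 848, 911 and 909.5 CPM in DMSO and 1066, 1081 and 1068 CPM in DSF/Cu, 1.20-fold higher (log2 change 0.27 ± 0.04, edgeR adjusted p = 0.00412). That call rests on the scaling: with total counts the change was 0.08 (edgeR adjusted p = 0.166), and with limma on log2(FPKM + 1) it was 0.10 (adjusted p = 0.119).

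**Figure D2:**
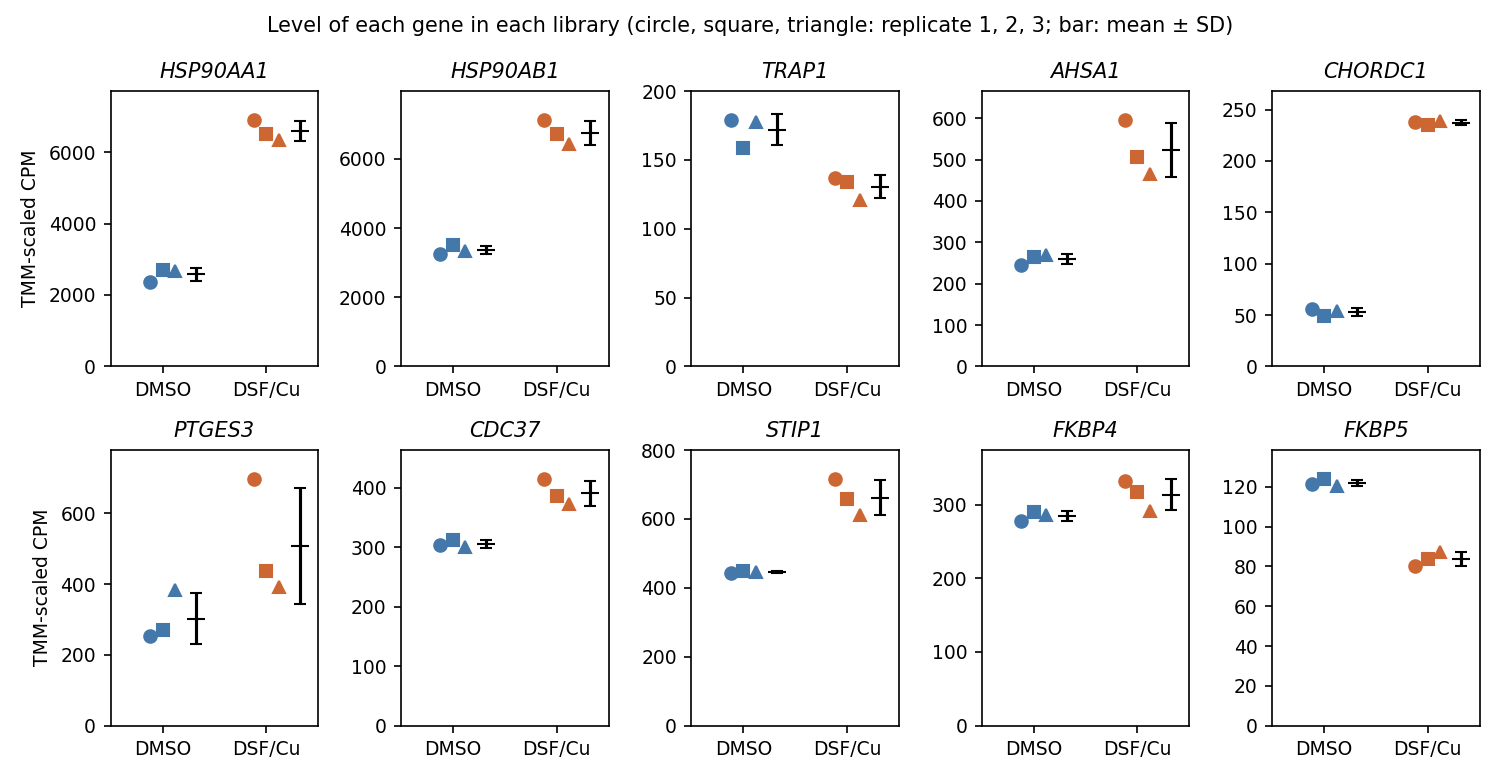
TMM-scaled CPM of the 10 genes (y axes, each from 0) in the 3 DMSO libraries (blue) and the 3 DSF/Cu libraries (orange), with replicate 1, 2 and 3 as circle, square and triangle and the mean ± SD as a bar. The groups do not overlap for any of the 10 genes on this scale, and PTGES3 has the widest spread, with 1 treated library at 697 CPM and the other two at 437 and 393 CPM.

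Among the co-chaperones that act on the ATPase cycle, CHORDC1 and AHSA1 rose, and PTGES3 did not pass the test. CHORDC1 (CHP-1 or morgana, a CHORD-domain protein that binds HSP90; ENSG00000110172, chr11:90200429-90223077, minus strand) read 56.1, 48.6 and 53.9 CPM in DMSO and 238, 235 and 239 CPM in DSF/Cu. The treated libraries lay within a few CPM of each other and far above the controls. The mean went from 52.9 ± 3.84 to 237 ± 2.47 CPM (SD, n = 3 each), 4.49-fold, a log2 change of 2.17 ± 0.07 (95% interval 2.00 to 2.33; edgeR adjusted p = 1.52e-05). Ordered from the most raised, CHORDC1 came 774th of the 18229 genes tested. It moved from place 7084 to place 2287 by FPKM, from 4.29 ± 0.338 to 17.1 ± 0.362.

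AHSA1 (AHA1, the activator of the HSP90 ATPase; ENSG00000100591, chr14:77457870-77469472, plus strand) read 246, 264 and 269 CPM in DMSO. In DSF/Cu it read 596, 507 and 466 CPM, so that every treated library lay far above the highest control. The mean went from 259.8 ± 12.2 to 523 ± 66.1 CPM (SD, n = 3 each), 2.01-fold, a log2 change of 1.01 ± 0.10 (95% interval 0.78 to 1.24; edgeR adjusted p = 0.000564). AHSA2P, a related locus listed as a pseudogene, read 8.02, 8.13 and 7.40 CPM in DMSO and 14.0, 5.47 and 11.7 CPM in DSF/Cu. Its log2 change of 0.40 ± 0.32 did not pass the test (edgeR adjusted p = 0.387), and without DSF/Cu replicate 2 it was 0.72 (edgeR adjusted p = 0.0167).

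PTGES3 (p23, which holds the closed form of HSP90; ENSG00000110958, chr12:56663341-56688408, minus strand) was the most variable of the 10. It read 253, 270.1 and 385 CPM in DMSO and 697, 437 and 393 CPM in DSF/Cu. The third DMSO library nearly reached the third DSF/Cu library, and the first DSF/Cu library stood apart from the other two. Its means were 302 ± 71.8 and 509 ± 164 CPM (SD, n = 3 each), a log2 difference of 0.75 ± 0.26 (95% interval 0.14 to 1.36; edgeR adjusted p = 0.0626). Single libraries decided the size and the call: the difference was 0.46 without DSF/Cu replicate 1 (edgeR adjusted p = 0.142) and 0.96 without DMSO replicate 3 (edgeR adjusted p = 0.0440). DESeq2 called it at the same size (0.75, adjusted p = 0.00478).

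CDC37 and STIP1, the adaptors that load clients, rose by smaller amounts. STIP1 (HOP, which bridges HSP70 and HSP90; ENSG00000168439, chr11:64185272-64204543, plus strand) read 443, 448 and 447 CPM in DMSO and 715, 657 and 613 CPM in DSF/Cu. The controls were nearly identical and every treated library lay above them. The mean went from 446 ± 2.50 to 662 ± 51.4 CPM (SD, n = 3 each), 1.48-fold, a log2 change of 0.57 ± 0.06 (95% interval 0.42 to 0.72; edgeR adjusted p = 0.000943). CDC37 (the kinase-specific co-chaperone; ENSG00000105401, chr19:10391133-10403542, minus strand) read 303, 312 and 299.6 CPM in DMSO and 414, 386 and 373 CPM in DSF/Cu, without overlap. Its log2 change was 0.36 ± 0.05 (1.28-fold, 95% interval 0.23 to 0.49; edgeR adjusted p = 0.00323). With total counts in place of TMM the change of CDC37 was 0.17 (edgeR adjusted p = 0.0255), still called at a smaller size.

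Of the paired immunophilins, FKBP5 fell and FKBP4 did not pass the test. FKBP5 (FKBP51, which lowers the hormone affinity of the glucocorticoid receptor and is itself a glucocorticoid-induced gene; ENSG00000096060, chr6:35573585-35728583, minus strand) read 122, 124 and 121 CPM in DMSO and 80.0, 83.8 and 87.4 CPM in DSF/Cu. The gap between the groups was several times the spread within either. The mean fell from 122 ± 1.65 to 83.7 ± 3.68 CPM (SD, n = 3 each), 1.46-fold lower, a log2 change of -0.54 ± 0.06 (95% interval -0.67 to -0.41; edgeR adjusted p = 0.000711). FKBP4 (FKBP52, its counterpart that favours receptor transport; ENSG00000004478, chr12:2794970-2805423, plus strand) read 278, 289.6 and 286 CPM in DMSO and 333, 317 and 291 CPM in DSF/Cu. The third treated library lay just above the highest control, and the log2 difference was 0.14 ± 0.06 (95% interval -0.01 to 0.28; edgeR adjusted p = 0.125). Its sign turned to -0.05 with total counts (edgeR adjusted p = 0.522) and to -0.03 with limma on log2(FPKM + 1) (adjusted p = 0.634), and without DSF/Cu replicate 3 it was 0.19 (edgeR adjusted p = 0.0452).

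**Figure D3:**
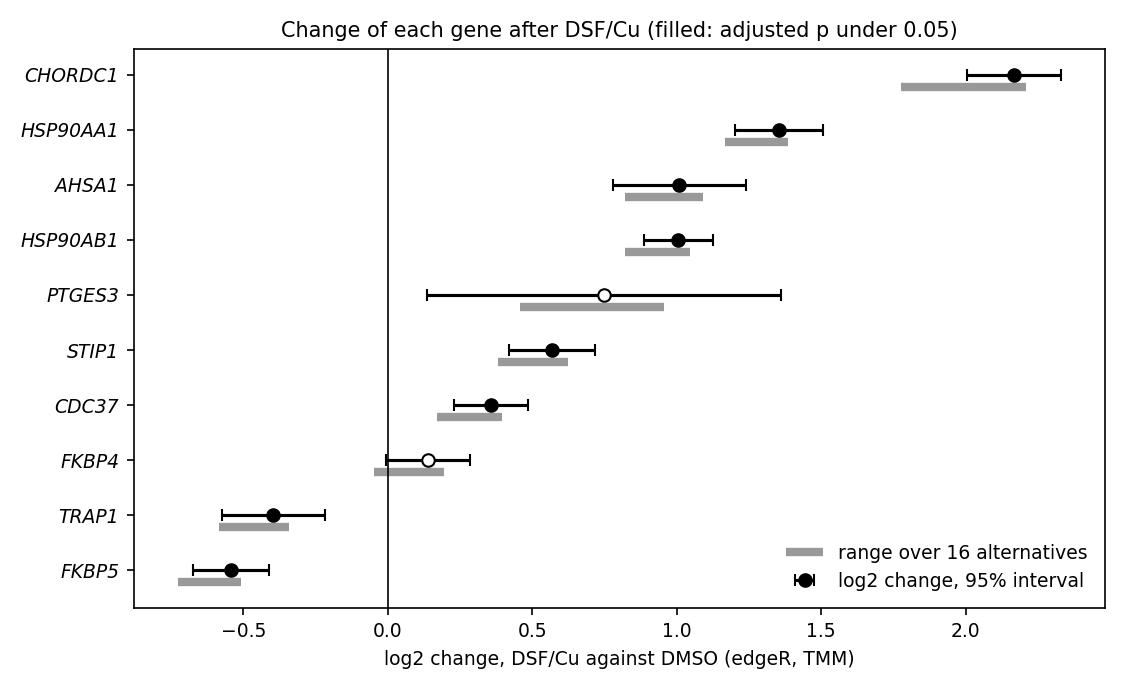
Log2 change of each of the 10 genes, DSF/Cu against DMSO (x axis), from edgeR with TMM scaling, with its 95% interval. Filled points have an adjusted p under 0.05, and grey bars show the range over 16 alternative settings. The intervals of CHORDC1 (2.17) and FKBP5 (-0.54) mark the ends of the set, FKBP4 alone has settings on both sides of 0, and PTGES3 has the widest interval.

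On the TMM scale none of the 10 genes had overlapping groups, which held for 51.2% of all genes tested. On total-count CPM the groups of FKBP4 and PTGES3 overlapped, leaving 8 of 10 against 54.0% of all genes. By size, 4 of the 10 (CHORDC1, HSP90AA1, AHSA1 and HSP90AB1) were called and rose over 2-fold, as did 7.42% of all genes tested. AHSA1 and HSP90AB1 sat close to that threshold. The count was 2 without DMSO replicate 1, without DSF/Cu replicate 1, with total counts, with no low count filter and with limma on FPKM. In these settings only CHORDC1 and HSP90AA1 were over 2-fold. Without DMSO replicate 3 the count was 3.

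The level order per length changed with treatment. In DMSO it ran HSP90AB1, HSP90AA1, CDC37 (90.4 ± 1.65 FPKM), STIP1 (86.4 ± 0.171), PTGES3 (80.2 ± 18.9), AHSA1 (79.5 ± 3.34), FKBP4 (49.7 ± 0.743), TRAP1 (29.9 ± 2.15), FKBP5 (10.3 ± 0.115) and CHORDC1. PTGES3 ran from 67.5 to 102 FPKM, a range that covers CDC37, STIP1 and AHSA1, so its place among them is not set. In DSF/Cu the order was HSP90AB1, HSP90AA1, AHSA1 (142 ± 15.3 FPKM), PTGES3 (119 ± 36.2), STIP1 (114 ± 6.77), CDC37 (103 ± 3.66), FKBP4 (48.6 ± 2.46), TRAP1 (20.1 ± 1.00), CHORDC1 and FKBP5 (6.31 ± 0.389). In DSF/Cu the range of STIP1 began just above that of CDC37, and that of PTGES3, from 93.9 to 161 FPKM, again spanned its neighbours. CHORDC1 passed from below FKBP5 to above it in every library.

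Ratios of counts within a library do not depend on how libraries are scaled, and 6 were compared. HSP90AA1 over HSP90AB1 was 0.723, 0.770 and 0.803 in DMSO against 0.969, 0.971 and 0.986 in DSF/Cu, so the 2 cytosolic genes came close to equal counts after treatment. The ratio rose by 0.35 on the log2 scale. HSP90AA1 over TRAP1 went from 13.2, 17.0 and 15.1 to 50.5, 48.7 and 52.3, a 3.37-fold difference. FKBP4 over FKBP5 went from 2.28, 2.34 and 2.38 to 4.16, 3.78 and 3.33, a 1.60-fold difference between the competing immunophilins. CHORDC1 over CDC37 went from 0.185, 0.156 and 0.180 to 0.575, 0.608 and 0.642, and STIP1 over HSP90AA1 from 0.188, 0.166 and 0.167 to 0.104, 0.101 and 0.0965. In these 5 ratios the groups did not overlap, and each gave p = 0.1 in an exact two-sided permutation test, the smallest that 3 against 3 allows, so none could pass 0.05 (Benjamini-Hochberg 0.12 over the 6). AHSA1 over HSP90AB1 was 0.0755, 0.0756 and 0.0806 in DMSO against 0.0836, 0.0755 and 0.0724 in DSF/Cu, overlapping (exact permutation p = 0.9). Both of those genes changed 2.01-fold.

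Per length, the 4 HSP90 paralogs divided differently in the 2 groups. HSP90AA1 held 25.6%, 26.8% and 27.5% of their summed FPKM in DMSO against 33.2%, 33.1% and 33.4% in DSF/Cu. HSP90AB1 kept about the same share, 60.3% to 62.2% in DMSO and 59.7% to 60.4% in DSF/Cu, with overlapping groups. HSP90B1 went from 10.3%, 10.2% and 10.4% to 5.74%, 6.14% and 6.29%. A paralog that rose less than the cytosolic pair holds a smaller share, without a lower level of its own. The log2 change of HSP90B1 itself was 0.27 with TMM, 0.08 with total counts and 0.10 with limma on log2(FPKM + 1). TRAP1 went from 1.96%, 1.60% and 1.85% to 0.665%, 0.689% and 0.645%.

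Set against the summed FPKM of HSP90AA1 and HSP90AB1, most co-chaperones were lower after DSF/Cu, including some that rose on their own. The pair itself went from a mean of 0.633% to 1.25% of all counts. Any gene that rose less than the pair is therefore lower on this scale, without a lower level of its own. FKBP4, for example, had means of 49.7 and 48.6 FPKM in DMSO and DSF/Cu. Per 100 FPKM of the pair, CDC37 stood at 6.20 ± 0.237 FPKM in DMSO and 3.65 ± 0.0239 in DSF/Cu (SD, n = 3 each). STIP1 stood at 5.92 ± 0.238 and 4.03 ± 0.121, FKBP4 at 3.41 ± 0.0819 and 1.72 ± 0.0436, and FKBP5 at 0.709 ± 0.0286 and 0.224 ± 0.0204. AHSA1, at 5.45 ± 0.145 and 5.03 ± 0.390, and PTGES3, at 5.49 ± 1.26 and 4.21 ± 1.15, overlapped between the groups. CHORDC1 alone of the 7 was higher, at 0.295 ± 0.0341 and 0.608 ± 0.0306. No test was run on these shares.

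**Figure D4:**
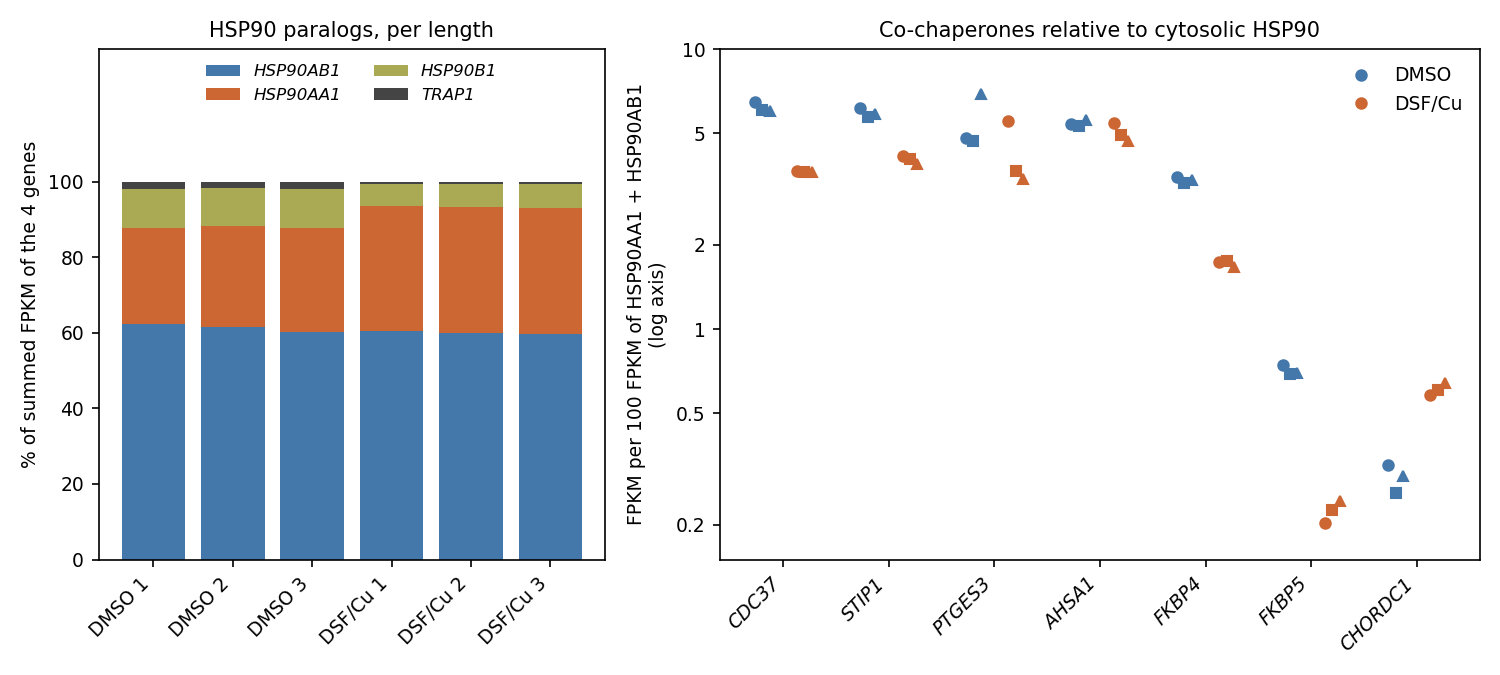
Left, share of each HSP90 paralog in the summed FPKM of the 4 (y axis, %), for each library. Right, FPKM of each co-chaperone per 100 FPKM of HSP90AA1 plus HSP90AB1 (log axis), with replicate 1, 2 and 3 as circle, square and triangle. HSP90AA1 made up 25.6% to 27.5% in the DMSO libraries and 33.1% to 33.4% in the DSF/Cu libraries, and CHORDC1 was the co-chaperone that lay higher relative to the pair after treatment.

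Several of these genes have processed copies elsewhere in the genome whose reads could be mixed with theirs. Counts of HSP90AA2P came to 1.05% to 1.09% of those of HSP90AA1 in DMSO and 1.13% to 1.21% in DSF/Cu. Counts of HSP90AB3P stayed between 0.359% and 0.428% of those of HSP90AB1. The listed change of HSP90AA2P (log2 1.48 ± 0.07, edgeR adjusted p = 4.69e-05) is therefore uncertain as a change of its own. PTGES3 had the largest share in copies, 4.40% to 5.82% in DMSO against 3.88%, 7.25% and 5.92% in DSF/Cu. Shares over all genes tested, to set beside the list counts here, were 18.5% raised and 16.8% lowered. In the wider family, 4 of 6 tested genes were called raised and none lowered: HSP90B1, HSP90AA2P, HSP90AB2P (log2 change 1.49 ± 0.19) and HSP90AB3P (1.09 ± 0.10). All of these but HSP90B1 are pseudogenes with at most 1.21% of their parent's counts, so their changes cannot be told apart from shared reads. With copies merged into their parents, 1 raised gene of this list was left. The call of HSP90B1 was lost with total counts (edgeR adjusted p = 0.166). Of 8 tested near copies and relatives of the co-chaperones, PTGES3P1 (0.88 ± 0.15, edgeR adjusted p = 0.00484) and CDC37L1, a homolog of CDC37 (0.73 ± 0.15, edgeR adjusted p = 0.0101), rose and none fell. Reads of PTGES3P1 may likewise belong in part to PTGES3. Adding the copies to their parents gave PTGES3 a log2 difference of 0.75 (edgeR adjusted p = 0.0542), and the 10 genes still gave 6 raised and 2 lowered.

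The wider set of HSP90 co-chaperones and related genes moved in both directions. Beside the counts of this and the following lists stand 18.5% raised and 16.8% lowered of all genes tested. Where libraries are scaled by total counts, the shares to set beside them are 12.9% raised and 26.6% lowered. Of 19 tested genes in a list made up mostly of TPR-domain proteins, 8 rose, 2 fell and 9 were not called, with a median log2 change of 0.06. The TPR domain is the fold by which many co-chaperones grip the tail of HSP90. The list also holds XPO7 and CACYBP, which are not TPR proteins. ST13 (HIP, an HSP70 co-chaperone) rose 1.76-fold from 162 ± 8.38 to 286 ± 26.6 CPM (log2 change 0.82 ± 0.08, edgeR adjusted p = 0.000629). STUB1 (CHIP, the ubiquitin ligase that marks HSP70 and HSP90 clients) fell 1.93-fold from 37.3 ± 1.60 to 19.3 ± 0.616 CPM (log2 change -0.95 ± 0.07, edgeR adjusted p = 0.000271). TTC4 (log2 change 0.51 ± 0.09) and TOMM70, a mitochondrial import receptor (0.37 ± 0.06), also rose (edgeR adjusted p = 0.00715 and 0.0037). With total counts the split was 4 raised and 6 lowered. Without DSF/Cu replicate 2 the raised count was 4, and without DMSO replicate 1 or 2 or DSF/Cu replicate 1 or 2 the lowered count was 1.

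Among 18 other co-chaperones, regulators and related genes, 6 rose and 5 fell, with a median of -0.01, and the lowered count was 3 without DMSO replicate 3. This list also holds genes that are not HSP90 co-chaperones, such as FLCN, NEDD8 and the HSP70 regulators HSPBP1 and BAG2. FLCN (folliculin, an HSP90 client) rose from 52.7 ± 0.617 to 116 ± 6.22 CPM (log2 change 1.14 ± 0.06, edgeR adjusted p = 8.39e-05), and its partner FNIP1, which slows the HSP90 ATPase, from 39.3 ± 2.63 to 90.8 ± 2.37 CPM (1.21 ± 0.07, edgeR adjusted p = 0.000104). TSC1 rose by 1.13 ± 0.07 and FNIP2 by 1.08 ± 0.10 on the log2 scale (edgeR adjusted p = 0.000161 and 0.000491). In the R2TP and prefoldin-like module, which works with HSP90 on large complexes, 4 of 15 rose and 4 fell, with a median of -0.02. PDRG1 rose by 0.92 ± 0.06, while the ATPase RUVBL1 (log2 change -0.70 ± 0.06), TELO2 (-0.81 ± 0.09) and URI1 (-0.35 ± 0.05) fell (edgeR adjusted p = 0.000124, 0.000317, 0.00098 and 0.00294). With total counts 1 of the module rose and 7 fell, and the raised count was 2 without any 1 of the DMSO libraries or DSF/Cu replicate 1 or 2.

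Of 11 tested FKBP genes other than FKBP4 and FKBP5, 1 rose and 2 fell, with a median of -0.14. With total counts none rose and 3 fell. FKBP7, an endoplasmic reticulum member, fell from 16.7 ± 1.69 to 10.3 ± 0.697 CPM (log2 change -0.70 ± 0.12, edgeR adjusted p = 0.00468). FKBP1C (0.49 ± 0.12, edgeR adjusted p = 0.0238) resembles FKBP1A closely enough that shared reads are possible. Its call was lost without DMSO replicate 2 (0.0785) or 3 (0.0610), without DSF/Cu replicate 1 (0.0582) or 2 (0.0590), and with total counts (0.0902), all as edgeR adjusted p. FKBP3 (-0.38 ± 0.10, edgeR adjusted p = 0.0259) lost its call without DMSO replicate 3 (0.0528) or DSF/Cu replicate 1 (0.0725) or 2 (0.0861).

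Transcripts of the heat shock factors were measured beside their known targets. HSF1 read 79.2, 62.8 and 73.2 CPM in DMSO and 78.0, 63.2 and 65.8 CPM in DSF/Cu. The groups overlapped, and the log2 difference was -0.06 ± 0.12 (edgeR adjusted p = 0.75). Its sign turned, still near 0, without DMSO replicate 1 (0.02) and without DSF/Cu replicate 2 (0.01). HSF2 rose from 19.0 ± 1.34 to 30.3 ± 1.97 CPM (log2 change 0.67 ± 0.09, edgeR adjusted p = 0.00216). HSBP1, which binds HSF1 trimers, was called at 0.40 ± 0.09 (edgeR adjusted p = 0.0177). Its adjusted p was 0.102 with total counts, 0.0601 and 0.0598 without DMSO replicates 1 and 2, and 0.0534 without DSF/Cu replicate 1. HSF4, at a mean of 3.47 CPM in DMSO, was called at -0.69 ± 0.21 (edgeR adjusted p = 0.041). Among single omissions it kept that call only without DSF/Cu replicate 1; the others gave edgeR adjusted p of 0.0784, 0.108 and 0.103 without DMSO replicates 1, 2 and 3 and of 0.0847 and 0.0831 without DSF/Cu replicates 2 and 3. Of the 6 genes tested in this list, 2 rose and 1 fell, with a median of 0.17, and with total counts 1 rose and 1 fell.

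The steroid receptor side of HSP90 biology was read through 14 tested genes, the receptors and glucocorticoid-responsive genes: 8 rose and 1 fell, with a median of 0.54. NR3C1, the glucocorticoid receptor, read 73.4, 81.6 and 88.1 CPM in DMSO and 111, 115 and 121 CPM in DSF/Cu (log2 change 0.51 ± 0.08, edgeR adjusted p = 0.0039). DUSP1, a MAP kinase phosphatase, rose 12.1-fold (log2 change 3.59 ± 0.09, edgeR adjusted p = 8.15e-06). TSC22D3 (GILZ) rose by 1.84 ± 0.15, MT2A by 1.82 ± 0.07 and ANGPTL4 by 1.81 ± 0.13 on the log2 scale (edgeR adjusted p = 0.000307, 3.33e-05 and 0.000191). FKBP5, also known as glucocorticoid-induced, fell in the same libraries. Many genes of this list also respond to other signals, such as metal for MT2A, and no hormone was measured.

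A list made up mostly of kinases was drawn up as clients of HSP90 and CDC37. Of its 48 tested genes, 8 rose, 16 fell and 24 were not called, with a median log2 change of -0.14. With total counts, which move all genes down, the split was 6 raised and 22 lowered. Of all genes tested, 18.5% were raised and 16.8% lowered, or 12.9% and 26.6% with total counts. PLK1, a mitotic kinase, fell from 137 ± 11.0 to 50.9 ± 5.05 CPM (log2 change -1.43 ± 0.10, edgeR adjusted p = 0.000169). AXL, a receptor kinase high in this line, fell by 0.76 ± 0.05 and AKT1 by 0.64 ± 0.06 on the log2 scale (edgeR adjusted p = 0.000139 and 0.000444). PIM1, a survival kinase, rose 2.47-fold from 59.2 ± 2.24 to 146 ± 3.68 CPM (edgeR adjusted p = 3.89e-05). These are transcript levels, whereas HSP90 acts on client proteins.

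The mitochondrial chaperones and proteases beside TRAP1 gave 5 raised and 2 lowered of 16, with a median of 0.17, beside 18.5% raised and 16.8% lowered of all genes. HSPE1, the co-chaperonin, rose from 209 ± 10.2 to 399 ± 3.74 CPM (log2 change 0.93 ± 0.05, edgeR adjusted p = 9.29e-05). HSPA9 (mortalin) rose by 0.76 ± 0.08 and the protease YME1L1 by 0.41 ± 0.04 (edgeR adjusted p = 0.000699 and 0.000707). AFG3L2, a matrix AAA protease, fell with TRAP1, by 0.56 ± 0.05 on the log2 scale (edgeR adjusted p = 0.000532). With total counts 4 rose and 3 fell, and on the TMM scale the lowered count was 1 without DMSO replicate 1 or 2 or any 1 of the DSF/Cu libraries.

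**Figure D5:**
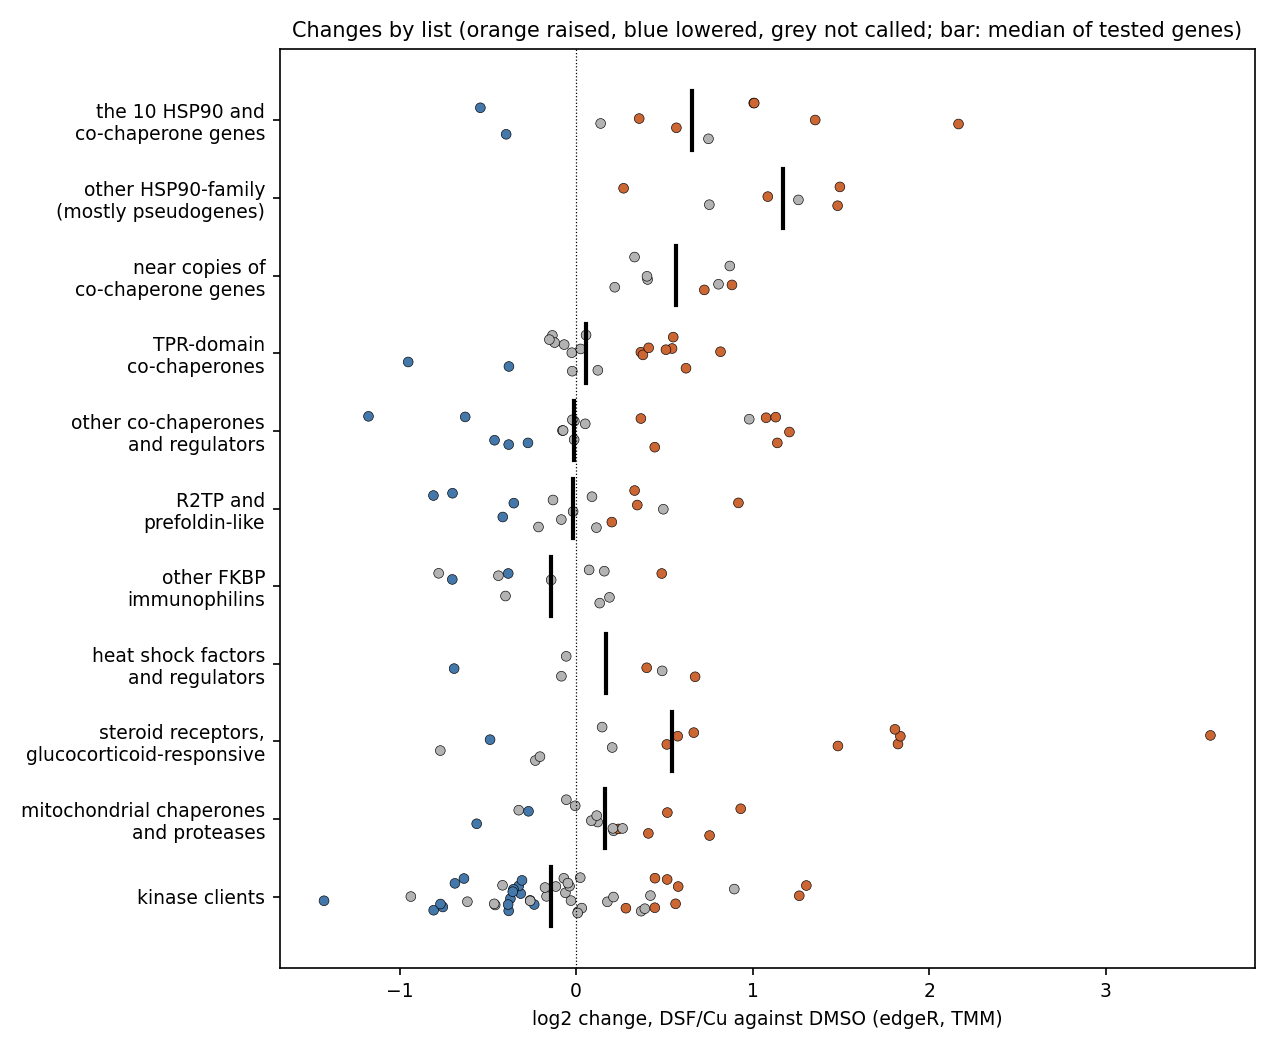
Log2 change of each tested gene, DSF/Cu against DMSO (x axis), for the 10 genes and 10 related lists, with raised genes in orange, lowered in blue and genes not called in grey. Black bars are list medians, which lie at 0.66 for the 10 genes, 1.17 for the other HSP90-family genes, 0.57 for the near copies of co-chaperone genes, 0.54 for the steroid receptor and glucocorticoid-responsive genes, and between -0.14 and 0.17 for the other lists. Most of the other HSP90-family genes are pseudogenes, whose counts may include reads of the parent gene.

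The genes most like HSP90AA1 and HSP90AB1 across the 6 libraries were found by the root mean square difference of log2 CPM, each gene centred on its own mean, among 9598 genes. For HSP90AA1 the 5 nearest were SLU7 (0.0280), NFIL3 (0.0388), CXCL8 (0.0403), FTH1 (0.0465) and BNIP3L (0.0479). For HSP90AB1 those reported are UFD1 (0.0144), ZNF143 (0.0235), SEC24A (0.0251) and RSL24D1 (0.0378). With 6 libraries in 2 groups, this measure mostly picks genes with a change of similar size.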

How the data were processed

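RNA of MDA-MB-231 cells was measured in 3 DMSO and 3 DSF/Cu libraries. The deposited table holds, per the file headers, whole-number counts per gene, unscaled, and FPKM values (scaled by length and fragment number) for the same libraries, whose columns headed Control were taken as DMSO, the one untreated group. Tools listed in the submitters' processing notes are Bowtie 0.12.2, HISAT2 2.0 and StringTie 1.3.0, with no role given. The build listed there, mm8, is of mouse, whereas the table's genes are human: 58552 of 58825 gene IDs occur in GENCODE 29 (GRCh38), where all 10 genes lie on the chromosome given and 5 have both ends identical. For counter and strand setting, the sources used here give nothing.

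Genes were kept by filterByExpr (edgeR 4.0.16, R 4.3.3) and DSF/Cu was compared with DMSO on counts by the quasi-likelihood F test, two-sided, with TMM scaling and Benjamini-Hochberg adjustment over 18229 genes. SE is the absolute log2 change over the square root of F. Of the steps, only the edgeR fit was tested on simulated data, with far fewer changed genes and a lower dispersion than in these data. Total counts were 55563223 to 70883177 per library. No pair of libraries of 1 group was a copy of another, since their chi-square per degree of freedom was 50.2 to 64.0. Replicate numbers are not said to pair the libraries, so no block was used. Deviations from the group means correlated at 0.02, -0.01 and 0.04 between libraries of the same number. With 3 libraries per group this does not settle whether they were prepared in pairs.

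Alternatives were total counts, RLE size factors, other count filters, a replicate block, each library left out, DESeq2 1.42.0, limma 3.58.1 on log2(FPKM + 1) and log2(FPKM + 0.1), and, chosen after seeing the data, near copies added to their parent gene. The text names all 10 genes, HSP90B1, HSF1, HSF2, NR3C1 and AHSA2P whatever their result, up to 4 called genes per list by adjusted p, and the 5 nearest genes to HSP90AA1 and HSP90AB1 with a mean of at least 10 CPM. Near copies are named as a check of shared reads. Some genes that this rule or the marker lists hold are not reported here. The 10 genes and the lists were chosen with earlier results of these data known.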

Additional observations from a re-analysis of the deposited data

How the results depend on the processing

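The counts of 6 raised and 2 lowered genes among the 10 held under all 16 alternatives, except that 7 rose with DESeq2 and without DMSO replicate 3 (PTGES3 added) and without DSF/Cu replicate 3 (FKBP4 added). FKBP4 changed sign with total counts (-0.0474), limma on log2(FPKM + 1) (-0.0336, also without a filter) and log2(FPKM + 0.1) (-0.0342). HSF1 changed sign without DMSO replicate 1 (0.0172) and DSF/Cu replicate 2 (0.00693), single omissions giving -0.152 to 0.0172. The log2 ratio of AHSA1 to HSP90AB1 ran from -0.0619 to 0.0418 over the single-library omissions. The cause was not tested. Other ratios kept their sign. Over 49 named genes and 780 gene and setting pairs, 740 kept direction and call, 30 lost the call, 4 gained one and 6 changed sign. With the replicate block, 6 of the 10 rose and 2 fell, and calls over all genes went from 6424 to 5143. Of the 10, the block changed no call. Pseudogenes merged into their parents had no value of their own there. The lowest level of any of the 10 genes in any library was 48.6 CPM (CHORDC1).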
